A study of Oryza sativa with 8 samples.

Results

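Transcript levels of the red and far-red light receptors phytochrome A, B and C and of the blue light receptors cryptochrome 1a, 1b and 2 were examined in rice seedlings. The 6 genes were taken by locus identifier, which gives 3 phytochromes (PHYA, LOC_Os03g51030; PHYB, LOC_Os03g19590; PHYC, LOC_Os03g54084) and 3 cryptochromes (CRY1a, LOC_Os02g36380; CRY1b, LOC_Os04g37920; CRY2, LOC_Os02g41550) out of 55801 loci in the table. The table annotates the phytochromes by name. It annotates the 3 cryptochrome loci only as proteins with the FAD binding domain of DNA photolyase, so their names rest on the locus identifiers. All 6 were expressed and passed the filter on low values, which kept 21014 loci.

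RNA came from wild type seedlings of the cultivar Nipponbare, raised at 28 °C in continuous white light after the seeds had stood in water at 37 °C for 24 h. Coleoptiles, the sheaths that enclose the young grass shoot, were sampled at 2 days and first leaves at 3 days of age, so organ and age cannot be told apart. Each organ was sampled after 1 h in simulated shade or after the same time in white light, with 2 libraries in each of the 4 groups. The shade light held 16 µE of red, 1.3 µE of blue and 48 µE of far-red light per square metre per second, a red to far-red ratio of 0.333, and the labels give no such values for the white light. They do not tie the 2 libraries of a group to separate cultures. The p-values therefore rest on the spread between these libraries alone, which may be technical.

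Phytochromes carry a bilin chromophore and switch between a red-absorbing and a far-red-absorbing form, the second of which is the active one. Light filtered through leaves is poor in red, which lowers the active share, and this is how plants sense neighbours. PHYA is known for responses to far-red light and for low levels in plants kept in light, while PHYB and PHYC are stable in light. PHYB is the main shade sensor in Arabidopsis. Cryptochromes bind a flavin and respond to blue light. They act with phytochromes on the COP1 ubiquitin ligase and on PIF transcription factors, and in Arabidopsis the CRY2 protein is broken down in blue light.

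Values are FPKM, which divide the fragments of a gene by its transcript length and by the mapped fragments of the library, so levels can be compared between genes. Summed FPKM ran from 696059 to 808054 per library. The fragment numbers themselves are not given. The step between the lowest values put relative depth between 0.827 and 1.37 times that of the first shaded coleoptile library. In the other libraries 8.49% to 29.0% of the low loci met that step. Whether the values were also scaled between libraries is not stated, so the step may not be depth alone. Replicates correlated across loci at r = 0.975 to 0.982 in 3 groups and at r = 0.914 in the white light coleoptile, where 3167 loci lay over 2-fold apart. The fit shares 1 spread per locus among the 4 groups. This pair can thus widen the intervals of comparisons that do not use it, while those that do can be too narrow. For CRY2, the first leaf shade difference had an SE of 0.27 with all libraries and 0.15 in a fit to the first leaf libraries alone. Its coleoptile shade difference had an SE of 0.27 with all libraries and 0.33 in a fit to the coleoptile libraries alone. Of the leaf markers, 21 loci of chlorophyll a/b binding proteins and the small subunit of Rubisco, all were above 1 FPKM in every library. They summed to 15957 to 26005 FPKM in coleoptiles and 35598 to 46002 FPKM in first leaves, and 9 of the 21 were called higher in the first leaf over both lights, where 11.3% of all tested loci were. The 43 endosperm storage protein loci summed to at most 2.61 FPKM. No marker of the coleoptile was set. Of the 2 root markers, the aquaporin LOC_Os02g51110 was at 4.35 to 11.6 FPKM in coleoptiles and 12.7 to 24.3 FPKM in first leaves, and LOC_Os03g01700 was at 0.204 FPKM or less. The part of these markers in the results was not tested.

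CRY2 was the most abundant of the 6 photoreceptor transcripts in all 8 libraries, and it was the one that varied most. Its levels ran from 25.4 to 62.5 FPKM with a median of 42.4, which placed it between the 78.5 and 90.8 percentile of the loci above 0 in a library. PHYA came next in 6 of the 8 libraries, at 16.0 to 34.0 FPKM with a median of 23.2. The other 4 genes were close to each other. PHYC was at 14.04 to 21.5, PHYB at 11.2 to 22.0, CRY1a at 12.4 to 24.4 and CRY1b at 10.4 to 19.96 FPKM, with medians of 15.5, 14.3, 16.4 and 16.3. Their ranges over all libraries overlap each other and that of PHYA. Within libraries PHYB was below both PHYA and CRY1a in 8 of 8 and below PHYC in 7 of 8, while PHYC and CRY1a (5 of 8 with CRY1a above) and PHYB and CRY1b (5 of 8 with PHYB above) had no steady order. The narrowest range was that of PHYC, whose highest library was 1.53 times its lowest, against 2.46 times for CRY2.

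**Figure D1:**
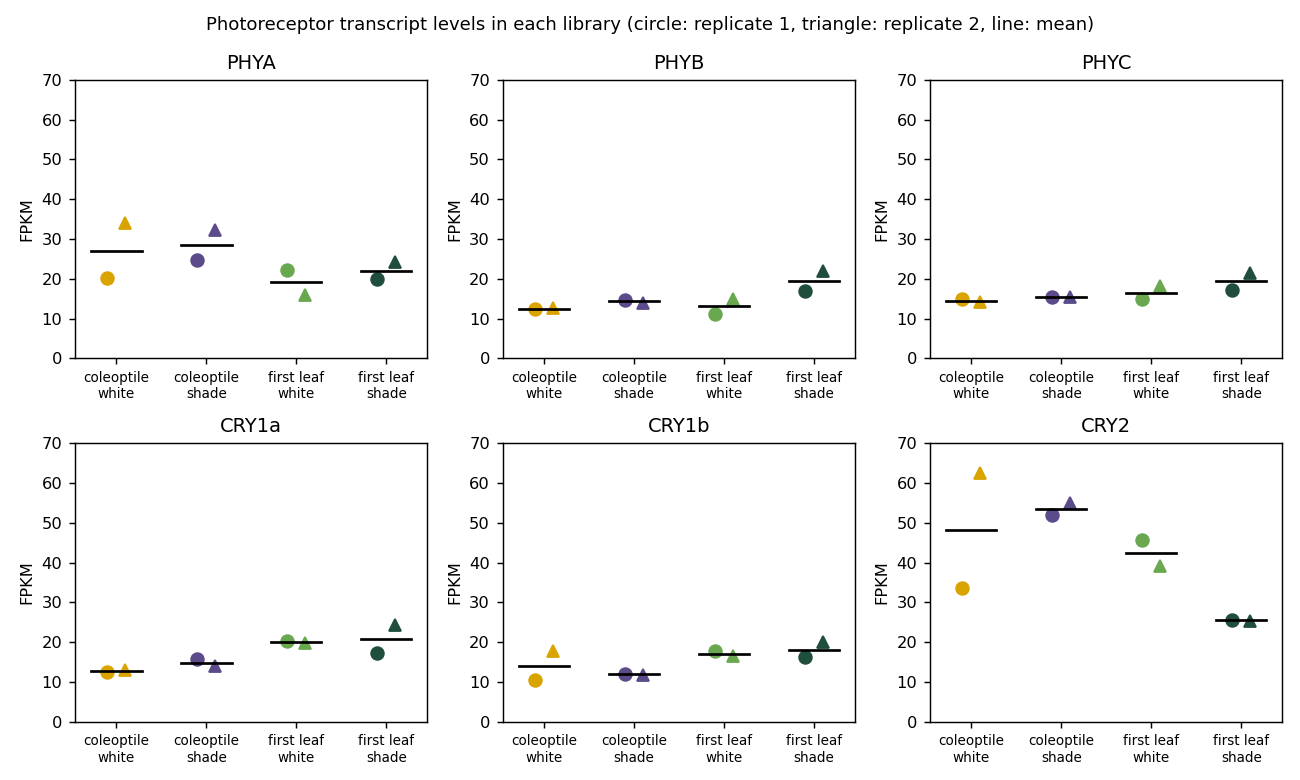
FPKM of each of the 6 photoreceptor genes (y axis) in the 4 groups of libraries (x axis). Circles are replicate 1, triangles replicate 2 and lines the mean of the 2. CRY2 sits above the other genes and is lowest in the shaded first leaf, at 25.5 and 25.4 FPKM.

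The phytochromes were measured first because the shade treatment changes the light that they absorb. PHYA in coleoptiles was at 20.1 and 34.0 FPKM in white light and at 24.6 and 32.3 FPKM in shade. In first leaves it was at 22.2 and 16.0 FPKM in white light and at 19.8 and 24.3 FPKM in shade. The groups overlapped in both organs. The log2 difference between shade and white light, on the log2(FPKM + 1) scale that holds for all differences given here, was 0.11 in coleoptiles (95% interval -0.58 to 0.79) and 0.21 in first leaves (-0.47 to 0.90).

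PHYB, the receptor best known for shade sensing, stood at 12.3 and 12.6 FPKM in white light coleoptiles and at 14.7 and 13.9 FPKM in shaded ones. In first leaves it was at 11.2 and 15.0 FPKM in white light and at 17.0 and 22.0 FPKM in shade. Both shaded libraries were above both white light libraries in each organ. The mean of the first leaf was 13.1 ± 2.68 FPKM in white light and 19.5 ± 3.59 FPKM in shade (SD, n = 2), 1.49 times as high. Its log2 difference there was 0.55 ± 0.20 (SE), with a 95% interval of 0.07 to 1.02. This was not called (limma, unadjusted p = 0.0297, adjusted p = 0.802 over all tested loci). In coleoptiles the difference was 0.18 (-0.29 to 0.66). Over both organs together PHYB differed by 0.36 ± 0.14 (SE), which was not called (limma, adjusted p = 0.426).

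PHYC, which in rice acts together with the other phytochromes, was the steadiest of the 3. It stood at 14.8 and 14.04 FPKM in white light coleoptiles and at 15.5 and 15.4 FPKM in shaded ones. First leaves held 14.8 and 18.1 FPKM in white light and 17.2 and 21.5 FPKM in shade. The coleoptile groups did not overlap, by a margin of under 1 FPKM, and the first leaf groups overlapped. The log2 differences were 0.09 (-0.33 to 0.51) and 0.22 (-0.20 to 0.64).

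Of the cryptochromes, CRY2 had its shade and white light groups furthest apart, in the first leaf. In first leaves it was at 45.5 and 39.2 FPKM in white light and at 25.5 and 25.4 FPKM in shade, so the groups did not overlap. The mean was 42.4 ± 4.46 FPKM in white light and 25.4 ± 0.0689 FPKM in shade (SD, n = 2), a ratio of 0.600. The log2 difference was -0.71 ± 0.27 (SE), with a 95% interval of -1.35 to -0.07. It was not called over all loci (limma, unadjusted p = 0.0344, adjusted p = 0.835). A lower difference was found for 2.81% of the tested loci. Under every alternative setting and with any single library left out, it stayed between -0.82 and -0.61, and its adjusted p ran from 0.124 upward. Beside it, 14 of the 21 leaf markers were lower and 2 higher in shaded first leaves without overlap, where 18.3% and 21.3% of all loci were. These markers summed to 46002 and 43002 FPKM in white light first leaves and to 35598 and 42402 FPKM in shaded ones, and 0 were called by limma. Their part in the CRY2 difference was not tested.

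In coleoptiles CRY2 was at 33.6 and 62.5 FPKM in white light and at 51.8 and 55.1 FPKM in shade. The 2 shaded libraries lay between the 2 white light ones. The log2 difference of 0.22 (-0.43 to 0.86) turned to -0.22 without white light replicate 1 and rose to 0.65 without replicate 2, so these libraries fix no direction. The CRY2 difference of the first leaf minus that of the coleoptile was -0.93 ± 0.39 (SE), not called (limma, unadjusted p = 0.0467, adjusted p = 0.870). It was called without coleoptile white light replicate 2 alone (-1.36, limma adjusted p = 0.021), a fit that leaves 1 white light coleoptile library, assumed to vary like the other groups.

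The other cryptochromes, CRY1a and CRY1b, are the pair of CRY1 type in rice. CRY1a in coleoptiles was at 12.4 and 13.1 FPKM in white light and at 15.7 and 13.96 FPKM in shade. In first leaves it was at 20.3 and 19.7 FPKM in white light and at 17.2 and 24.4 FPKM in shade. The coleoptile groups did not overlap and the first leaf groups did, with log2 differences of 0.20 (-0.26 to 0.66) and 0.03 (-0.43 to 0.49).

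CRY1b in coleoptiles was at 10.4 and 17.7 FPKM in white light and at 12.0 and 11.8 FPKM in shade. In first leaves it was at 17.7 and 16.4 FPKM in white light and at 16.3 and 19.96 FPKM in shade. The groups overlapped in both organs, with log2 differences of -0.18 (-0.77 to 0.40) and 0.08 (-0.51 to 0.66).

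None of the photoreceptor transcripts, each tested on its own, was called after 1 h of shade with all libraries. In coleoptiles 0 of 6 were called by limma (0 at an unadjusted p under 0.05), where 0.0428% of all tested loci were called and 9.91% had an unadjusted p under 0.05. In first leaves 0 of 6 were called (2 at an unadjusted p under 0.05, PHYB and CRY2), where 0% of all loci were called and 5.48% had an unadjusted p under 0.05. The median log2 difference of the 6 was 0.14 in both organs, against 0.02 and 0.01 for all tested loci. In coleoptiles 3 of 6 were higher in shade without overlap, where 17.3% of loci were. In first leaves 1 of 6 was higher and 1 lower without overlap, where 21.3% and 18.3% of loci were. For the difference of the 2 shade responses 0 of 6 were called by limma (1 at an unadjusted p under 0.05, CRY2), where 0.019% of all loci were called and 5.58% had an unadjusted p under 0.05. For shade over both organs 0 of 6 were called (1 at an unadjusted p under 0.05, PHYB), where 0.0286% of all loci were called and 10.8% had an unadjusted p under 0.05. A p that misses the threshold does not show that levels were equal: in coleoptiles the widest of the 6 intervals still held differences from -0.58 to 0.79 for PHYA.

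**Figure D2:**
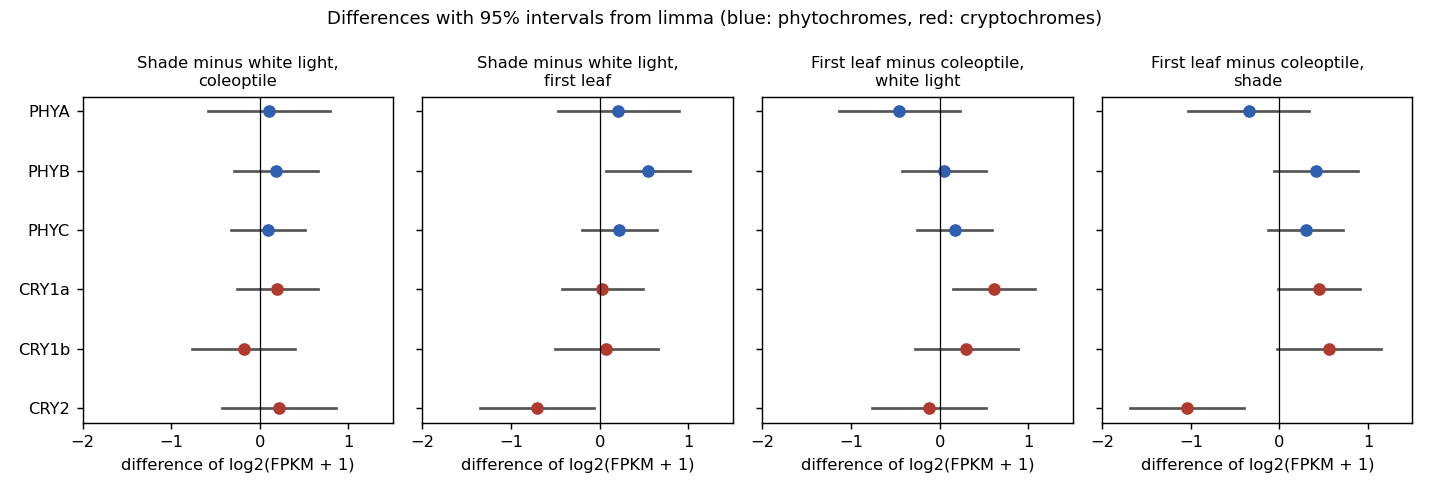
Difference of log2(FPKM + 1) (x axis) for each gene (y axis) between shade and white light in coleoptile and first leaf, and between first leaf and coleoptile in white light and in shade. Points are limma estimates from 2 libraries against 2, lines their 95% intervals. CRY2 is at -0.71 in the shaded first leaf and at -1.04 between the shaded organs, and PHYB at 0.55 in the shaded first leaf.

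The 2 organs were compared next. CRY1a was higher in the first leaf, at 17.2 to 24.4 FPKM in its 4 libraries against 12.4 to 15.7 FPKM in the 4 coleoptile libraries, with no overlap. The means were 20.4 ± 2.98 and 13.8 ± 1.40 FPKM (SD over the 4 libraries of both lights). Its log2 difference over both lights was 0.53 ± 0.14 (SE), and it was the 1 of the 6 genes that was called there (limma, adjusted p = 0.0349), where 20.8% of all tested loci were called, of which those higher in the first leaf were 11.3% of the tested loci. An unadjusted p under 0.05 was found for 3 of the 6 (CRY1a, CRY1b and CRY2) and for 32.9% of all loci. The share of loci higher without overlap was 13.7%. In white light alone CRY1a differed by 0.61 ± 0.20 (adjusted p = 0.0994) and in shade alone by 0.44 ± 0.20 (adjusted p = 0.221), neither of them called by limma.

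The CRY1a call is close to the threshold. It ended with the replicate number as a block (limma, adjusted p = 0.0518, the same difference). With 1 library fewer, it ended without coleoptile shade replicate 1 (difference 0.57, limma adjusted p = 0.0878), coleoptile shade replicate 2 (0.49, 0.134), first leaf shade replicate 2 (0.41, 0.0939), first leaf white light replicate 1 (0.52, 0.118) or first leaf white light replicate 2 (0.54, 0.106). The difference kept its direction throughout, between 0.41 and 0.65.

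CRY2 was lower in the first leaf than in the coleoptile under shade, at 25.5 and 25.4 FPKM against 51.8 and 55.1 FPKM. The ratio of the means was 0.476 and the log2 difference -1.04 ± 0.27 (SE), which missed the threshold with all libraries (limma, adjusted p = 0.0560). It was called with quantile normalization (limma, adjusted p = 0.0413), with a weight per library (0.00592) and in a fit to the 4 shaded libraries alone (0.00423). Of the 21014 tested loci, these settings called 2390, 3947 and 4005 in that order, against 2164 in the main fit. The other alternative settings, listed below, did not call the CRY2 difference (limma, adjusted p from 0.0567 with a pseudocount of 0.1 to 0.0938 without the filter). With 1 library left out the difference ran from -1.08 to -1.00. In white light CRY2 differed by -0.12 (-0.76 to 0.53), and the direction turned to 0.32 without coleoptile white light replicate 2. Over both lights its difference of -0.58 ± 0.19 was not called (limma, adjusted p = 0.0781). It was called with a weight per library (limma, adjusted p = 0.0379) and under no other setting that kept all libraries (adjusted p up to 0.118). With 1 library left out it ran from -0.80 to -0.36.

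CRY1b and the phytochromes were not called between the organs with all libraries. CRY1b was at 11.8 and 12.0 FPKM in shaded coleoptiles and at 16.3 and 19.96 FPKM in shaded first leaves, a log2 difference of 0.56 (-0.02 to 1.15; limma, adjusted p = 0.222). Other than leaving out a library, no alternative setting called it (limma, adjusted p from 0.0599 to 0.293). With 1 library left out it ran from 0.42 to 0.70. Over both lights the CRY1b difference was 0.43, not called under these settings either (limma, adjusted p from 0.0932 to 0.184). It ran from 0.25 to 0.61 with 1 library left out. PHYA, known from grasses for transcripts that fall in light, had a mean of 27.7 ± 6.52 FPKM in coleoptiles and 20.6 ± 3.57 FPKM in first leaves (SD over 4 libraries). Its difference of -0.40 (-0.88 to 0.08) was not called with all libraries (limma, adjusted p = 0.229). It ran from -0.58 to -0.22 with 1 library left out. PHYB and PHYC each differed by 0.23, with limma adjusted p = 0.319 and 0.256.

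In white light 0 of 6 genes were called between organs by limma (1 at an unadjusted p under 0.05, CRY1a), where 11% of all tested loci were called and 25% had an unadjusted p under 0.05. CRY1a was the 1 gene higher there without overlap, where 26.5% of loci were. In shade 0 of 6 were called as well (1 at an unadjusted p under 0.05, CRY2), where 10.3% of all loci were called and 24.3% had an unadjusted p under 0.05. Without overlap, 4 of the 6 were higher in the shaded first leaf (PHYB, PHYC, CRY1a and CRY1b) and 2 lower (PHYA and CRY2), where 31.2% and 29.4% of all loci were. In bulk samples a transcript made by fewer cells and one made at less RNA per cell cannot be told apart. The leaf markers given above also differ between the organs, and their part in the organ differences was not tested.

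The make-up of each family within a library does not depend on scaling between libraries. CRY2 made up 66.7% ± 2.11 of the summed cryptochrome FPKM in shaded coleoptiles and 63.3% ± 5.29 in white light coleoptiles (SD, n = 2). It made up 53.3% ± 1.73 in white light first leaves and 39.8% ± 4.83 in shaded ones. The 4 coleoptile libraries, at 59.5% to 68.2%, all lay above the 4 first leaf libraries, and the shaded first leaves, at 43.2% and 36.4%, were the lowest. The ratio of CRY2 to CRY1a was 2.70 and 4.78 in white light coleoptiles, 3.31 and 3.95 in shaded coleoptiles, 2.24 and 1.99 in white light first leaves and 1.48 and 1.04 in shaded first leaves.

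PHYA made up 49.2% ± 9.57 of the summed phytochrome FPKM in white light coleoptiles and 48.7% ± 5.31 in shaded ones (SD, n = 2). The first leaf held 39.3% ± 9.52 in white light and 36.3% ± 0.663 in shade. The replicates of each white light group were far apart, and the white light groups of the 2 organs overlapped. The shaded groups did not, at 44.9% and 52.4% in coleoptiles and 36.8% and 35.8% in first leaves. The shares of PHYB were 23.5% ± 3.73, 24.7% ± 2.96, 26.9% ± 5.20 and 32.0% ± 0.762 in the same order. The PHYB to PHYC ratio ran from 0.753 to 1.03, with PHYB below PHYC in 7 of 8 libraries. Cryptochromes together were at 1.03 to 1.73 times the phytochromes, lowest in the shaded first leaves at 1.09 and 1.03.

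**Figure D3:**
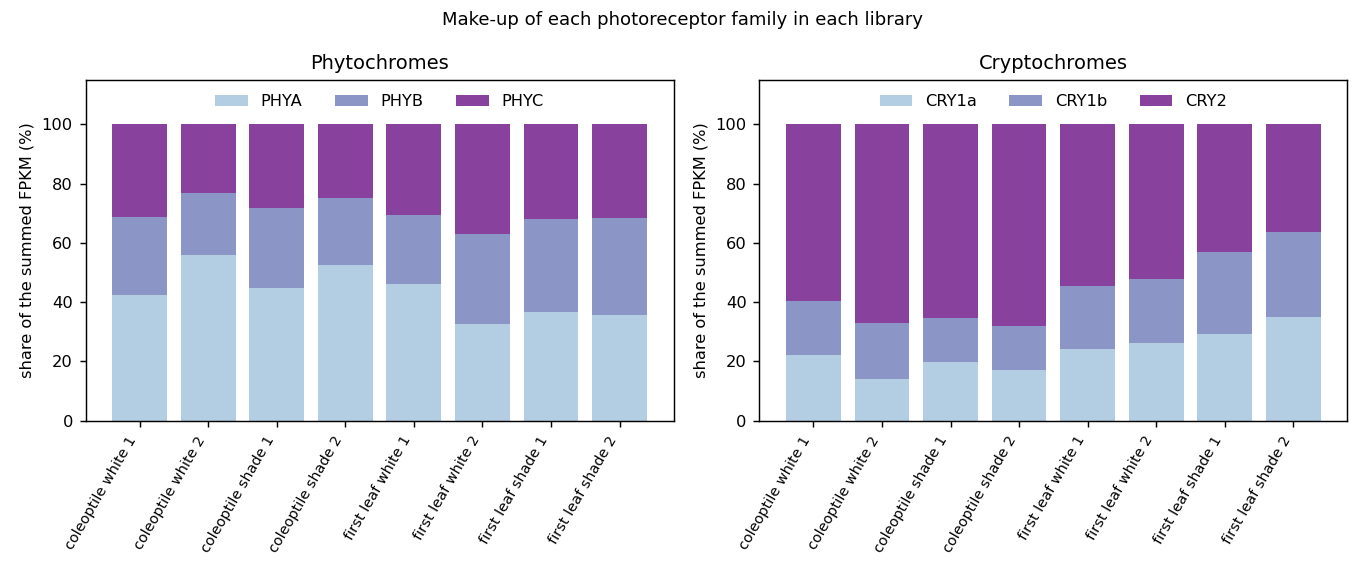
Share of each gene in the summed FPKM of its family (y axis, percent) in each of the 8 libraries (x axis), for the phytochromes and the cryptochromes. The CRY2 share lies between 59.5% and 68.2% in coleoptiles and is lowest in shaded first leaves, at 43.2% and 36.4%.

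The profiles of the 6 genes over the 8 libraries were set against each other and against 15572 other tested loci with an annotated function, as the root mean square difference of the centred log2 values. PHYB and PHYC had the most alike pair of profiles among the 6 (0.13), followed by PHYC and CRY1a (0.19), and PHYB and CRY2 the least alike (0.66). Steady genes have many near neighbours. Within 0.2 of PHYC there were 1966 loci, within 0.2 of CRY2 there were 17. The nearest to CRY2 were LOC_Os04g23700, a lectin protein kinase (0.12), and LOC_Os06g42730, a prolyl oligopeptidase homologue (0.14). The first was at 0.814 to 4.42 FPKM, where the added 1 FPKM narrows its changes. The second was at 8.83 and 8.94 FPKM in white light first leaves and at 5.99 and 5.85 FPKM in shaded ones.

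The nearest loci to PHYA were LOC_Os11g43610, an oxidoreductase of the 2OG-Fe oxygenase family (0.07), and LOC_Os07g33540, a cytochrome P450 (0.12). The cytochrome P450 was at 0.483 to 1.71 FPKM, where the added 1 FPKM narrows its changes as well. Those nearest to PHYB were LOC_Os09g08072, a glycosyl hydrolase, and LOC_Os01g40640, with an S1 RNA binding domain (both 0.09). An RNA polymerase sigma factor, LOC_Os03g16430, and a pentatricopeptide protein, LOC_Os11g17530, lay nearest to PHYC (both 0.06). CRY1a lay nearest to LOC_Os08g03570, an NAD dependent epimerase (0.07), and to LOC_Os04g52230, an ent-kaurene synthase (0.08), an enzyme of gibberellin precursor synthesis. A DnaJ chaperone, LOC_Os04g46390 (0.06), and an inositol monophosphatase, LOC_Os02g07350 (0.07), were nearest to CRY1b. These are descriptions over 8 libraries that fall into 2 organs.

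Other photolyase-domain proteins were examined because cryptochromes belong to that family, whose photolyases repair DNA with light. All 4 such loci other than the cryptochromes above were tested, with 0 called after shade in either organ. LOC_Os09g36240, annotated as a deoxyribodipyrimidine photolyase, was at 27.2 and 28.3 FPKM in white light first leaves and at 11.6 and 16.0 FPKM in shaded ones. Its log2 difference was -0.97 ± 0.23 (SE; limma, unadjusted p = 0.00350, adjusted p = 0.459). LOC_Os06g45100 was at 22.1 and 20.8 FPKM in white light first leaves and at 11.1 and 14.8 FPKM in shaded ones, a difference of -0.70 ± 0.18 (adjusted p = 0.540). It was at 34.5 and 35.4 FPKM in white light coleoptiles and 24.6 and 21.1 FPKM in shaded ones, a difference of -0.60 ± 0.18 (adjusted p = 0.293).

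With CRY2, 3 of the 7 loci of this domain were thus lower in shaded first leaves without overlap, where 18.3% of all loci were. LOC_Os02g10990 and LOC_Os10g08580, the other two, had first leaf differences of 0.05 and -0.08. Between organs over both lights, LOC_Os09g36240 was higher in the first leaf (0.88, limma adjusted p = 0.00867) and LOC_Os06g45100 lower (-0.73, adjusted p = 0.00738). The first was called in white light alone (1.22, adjusted p = 0.0167) and the second in shade alone (-0.78, adjusted p = 0.0381). Of all tested loci, 20.8% were called over both lights, 11% in white light and 10.3% in shade.

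Phytochromes need a bilin, which is made from heme by heme oxygenase and a bilin reductase. The 3 loci of this step were expressed in every library and none was called in the shade or organ comparisons. Heme oxygenase 1, LOC_Os06g40080, was at 99.9 to 146 FPKM in coleoptiles and 80.5 to 99.3 FPKM in first leaves, well above the level of any phytochrome. Its first leaf shade difference was 0.01. Heme oxygenase 2, LOC_Os03g27770, was at 21.8 and 24.7 FPKM in white light first leaves and at 31.5 and 32.3 FPKM in shaded ones, a difference of 0.44 ± 0.19 (SE; limma, adjusted p = 0.902). LOC_Os01g72090, annotated as a phycoerythrobilin ferredoxin oxidoreductase, was at 14.1 to 25.5 FPKM, with a first leaf shade difference of 0.20. The median of the list was -0.09 in the shaded coleoptile and 0.20 in the shaded first leaf, against 0.02 and 0.01 for all loci.

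PIF proteins are helix-loop-helix factors that bind active phytochrome and are then degraded. Of 6 such loci listed, 5 were analysed, and LOC_Os01g18290 was not analysed here. Of the 5, 0 were called after shade in either organ (limma), with medians of 0.30 in coleoptiles and -0.32 in first leaves. LOC_Os05g04740 was at 12.9 and 14.8 FPKM in white light coleoptiles and at 30.2 and 27.2 FPKM in shaded ones, a difference of 1.00 ± 0.21 (SE; limma, adjusted p = 0.146). Between organs over both lights 3 of 5 were called higher in the first leaf and 1 lower, where 20.8% of all loci were called. Those higher were LOC_Os03g56950, annotated as phytochrome-interacting factor 4 (1.25, adjusted p = 0.000948), LOC_Os03g43810 (0.93, adjusted p = 0.00946) and LOC_Os12g41650 (0.84, adjusted p = 0.00888). LOC_Os05g04740 was the lower one (-1.34, adjusted p = 0.000944). The same 4 loci were called in white light alone, where 11% of all loci were, and LOC_Os03g56950 (0.94, adjusted p = 0.0243) and LOC_Os05g04740 (-1.62, adjusted p = 0.00429) in shade alone, where 10.3% were. LOC_Os07g05010, at 19.9 to 43.8 FPKM, was not called in any of these comparisons.

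HY5 is a bZIP factor that promotes light responses and that COP1 marks for degradation. Of the list of 3 such loci, 0 were called after shade (limma), with medians of -0.40 in coleoptiles and -0.41 in first leaves. Over both lights 2 of 3 were called lower in the first leaf than in the coleoptile, where 20.8% of all loci were called in either direction. They were LOC_Os06g39960 (-2.27, adjusted p = 0.000698), at 2.10 to 4.10 FPKM in first leaves and 11.9 to 34.8 FPKM in coleoptiles, and LOC_Os01g07880, annotated as HY5 (-0.89, adjusted p = 0.00988). LOC_Os02g10860 was at 4.83 to 14.8 FPKM and was not called.

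COP1, LOC_Os02g53140, on which both receptor families act, was at 39.1 and 37.9 FPKM in white light coleoptiles and at 24.6 and 26.3 FPKM in shaded ones, a difference of -0.58 ± 0.18 (SE; limma, adjusted p = 0.3002). In first leaves it was at 36.6 and 38.0 FPKM in white light and at 25.7 and 34.9 FPKM in shade (-0.31, adjusted p = 1). The groups were apart in both organs, and neither difference was called. None of the 5 loci of COP1, DET1 and the COP9 signalosome was called in any shade or organ comparison. The others were DET1, LOC_Os01g01484, and the signalosome subunits LOC_Os04g34930, LOC_Os04g56070 and LOC_Os08g39070, with first leaf shade differences of -0.05, -0.22, -0.35 and -0.03.

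**Figure D4:**
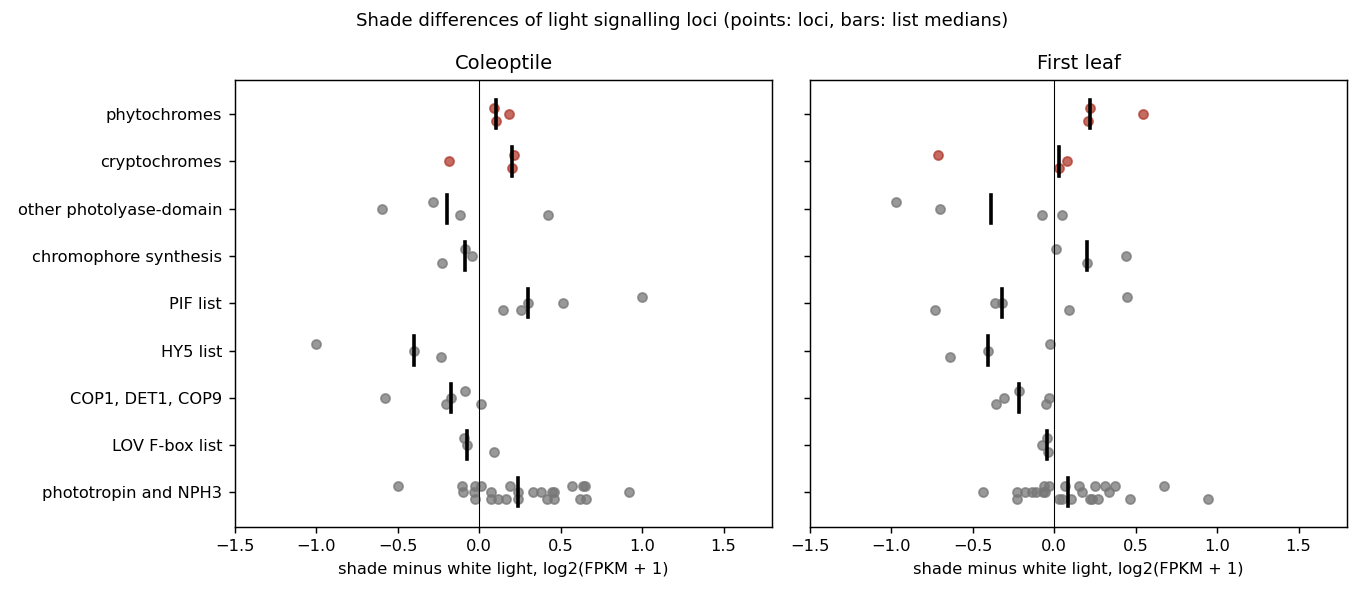
Difference between shade and white light on the log2(FPKM + 1) scale (x axis) for the phytochromes, the cryptochromes and the loci of 7 lists of light signalling genes (y axis), in coleoptiles and first leaves. Each point is 1 locus and each bar a list median. The photolyase-domain list has a median of -0.20 in coleoptiles and -0.39 in first leaves, and no locus shown was called after shade.

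Other loci whose annotation names phytochrome were few. The phytochrome A-associated F-box protein LOC_Os05g30190 had a first leaf shade difference of -0.43, not called (limma, adjusted p = 1). LOC_Os07g04220, a receptor like kinase annotated with wound and phytochrome signalling, was lower in the first leaf over both lights (-1.30, adjusted p = 0.000836) and was not called after shade. LOC_Os08g16430 was under the filter. In the list of phototropins, the blue light receptors of phototropism, and of the related NPH3 family, 26 of 33 loci were tested and 0 were called after shade in either organ (limma), while 7 were higher and 8 lower in the first leaf over both lights, where 20.8% of all loci were called. Those with the smallest p were LOC_Os02g35970 (-1.73, adjusted p = 0.000276), LOC_Os03g10880 (1.68, adjusted p = 0.0004) and LOC_Os01g08140 (-1.44, adjusted p = 0.00126). In white light alone 2 were higher and 3 lower, LOC_Os01g08130 among the lower (-1.68, adjusted p = 0.0105), and in shade alone 1 was higher and 5 lower, where 11% and 10.3% of all loci were called.

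The list of F-box proteins with a blue light sensing LOV domain held 3 loci. LOC_Os11g34460 was higher in the first leaf over both lights (0.57, limma adjusted p = 0.0249), and LOC_Os02g05700 and LOC_Os06g47890 were not called. Of 7 loci annotated as FAR1, a family that in Arabidopsis drives the phytochrome A pathway, 1 passed the filter, LOC_Os03g15040, which was higher in the first leaf (1.11, adjusted p = 0.00224). In the same organ comparison 20.8% of all loci were called.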

How the data were processed

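The authors deposited FPKM values for 8 libraries in 1 table of 55801 loci. Per the submitters' processing notes, Trim Galore 0.3.7, TopHat2 2.0.14, Bowtie2 2.2.3, Cufflinks 2.2.1, Cuffnorm 2.2.1 and Cuffdiff 2.2.1 were used. The genome build, the annotation release and the order of these tools stand in no source used here, so no coordinates are printed. FPKM is no count, so no count model was used.

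For testing, log2(FPKM + 1) values of the 21014 loci whose mean reached 1 FPKM were fitted with limma 3.58.1 (R 4.3.3). The 4 groups were fitted together, with an intensity trend (4 residual and 3.26 prior degrees of freedom). Within each of 7 comparisons p-values were adjusted over all tested loci (Benjamini-Hochberg), and an adjusted p under 0.05 counts as called. The log2(FPKM + 1) scale understates the change of low genes. Intervals are limma's 95% intervals.

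The 6 genes and the lists were chosen with earlier results of these data known. Every one of the 6 is reported. Of the lists, loci called were named (up to 3 per list and comparison), and all loci of lists of up to 6, with 2 nearest profiles per gene. The PIF, HY5, phototropin and LOV F-box lists rest on locus identifiers, which the table annotates only in part. The model was tested on simulated data in which each locus had the same spread in all groups. That test does not cover a group of wider spread, as the white light coleoptile was here.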

Additional observations from a re-analysis of the deposited data

How the results depend on the processing

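The differences of the 6 genes kept their direction under every alternative other than leaving out a library. These were a pseudocount of 0.1, no filter, a mean of at least 5 FPKM, equal medians, quantile normalization, a weight per library, no intensity trend, a fit to the libraries of the comparison alone and the replicate block. The weights came out equal within each group, so they act as weights per group. They were 0.352 in the white light coleoptile and 1.03 to 1.66 in the other groups. Leaving out 1 library turned 16 of the 42 differences, none of them called. For shade in coleoptile the ranges were -0.26 to 0.47 (PHYA), -0.54 to 0.17 (CRY1b) and -0.22 to 0.65 (CRY2). For shade in first leaf they were -0.015 to 0.44 (PHYA), -0.21 to 0.27 (CRY1a) and -0.064 to 0.22 (CRY1b). For shade over both organs they were -0.025 to 0.34 (PHYA), -0.005 to 0.24 (CRY1a) and -0.23 to 0.12 (CRY1b). For the difference of responses they were -0.26 to 0.47 (PHYA), -0.027 to 0.28 (PHYC), -0.41 to 0.073 (CRY1a) and -0.10 to 0.62 (CRY1b). For the organs in white light they were -0.15 to 0.24 (PHYB), -0.053 to 0.66 (CRY1b) and -0.55 to 0.32 (CRY2). The cause was not tested.

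With all libraries limma called 1 of the 6 genes in 1 of 7 comparisons, the organs over both lights. There 2 were called with a weight per library, 0 with the replicate block and 0 to 3 with 1 library fewer. In shade the organs gave 1 call with quantile normalization, a weight per library or the 4 shaded libraries alone, and 0 to 2 with 1 library fewer. The difference of responses gave 0 to 1 call with 1 library fewer.

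Calls over all loci were 9 for shade in coleoptile, 0 for shade in first leaf, 4 for the difference of responses and 6 for shade over both organs. In that order, pseudocount 0.1 gave 0, 0, 0 and 0, no filter 68, 14, 39 and 45, a mean of at least 5 FPKM 0, 5, 0 and 0, a weight per library 3, 37, 0 and 11, and the replicate block 4, 2, 0 and 0. Equal medians gave 12 and quantile normalization 14 for shade in first leaf. No intensity trend gave 7 for the difference and 10 over both organs. A coleoptile fit alone gave 0. With 1 library fewer the counts ran from 0 to 1739, 0 to 51, 0 to 887 and 0 to 1362, the highest without a white light coleoptile library. Between organs the counts were 2303 in white light (1348 with a weight per library, 527 in a fit to those libraries alone, 741 to 4022 with 1 fewer), 2164 in shade (3947, 4005 and 541 to 4259) and 4362 over both lights (2540 to 6236). The replicate numbers share only a number: deviations of same-numbered libraries correlated at 0.03 in coleoptiles and 0.09 in first leaves. The block ended the CRY1a call and no other among the 6 genes.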

Other observations

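The replicates of the white light coleoptile split the 6 photoreceptor genes. PHYA was 1.69, CRY1b 1.70 and CRY2 1.86 times as high in replicate 2 as in replicate 1, while PHYB, PHYC and CRY1a were within 1.06 times of each other. In the shaded coleoptile the replicates of CRY2 were 1.06 times apart and those of CRY1b 1.02 times. Between the white light coleoptile replicates, 81.1% of all tested loci were closer than CRY2, and 4.41% were closer than PHYB.

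With earlier results of these data known, early light-induced proteins, chloroplast proteins known as light-responsive, were chosen to set beside the photoreceptors. Of the 6 such loci 3 passed the filter. LOC_Os07g08160 fell in shade over both organs (-2.57 on the log2 scale, limma adjusted p = 0.0476), at 9.81 to 161 FPKM in the 4 shaded libraries and 137 to 281 FPKM in the 4 white light ones, which overlap. That call ended, with 0 loci called in all, under a pseudocount of 0.1, a mean of at least 5 FPKM, the replicate block, and without any 1 of the shaded or of the first leaf libraries. LOC_Os01g14410 was at 311 and 179 FPKM in white light first leaves and at 31.3 and 27.0 FPKM in shaded ones, and LOC_Os07g08150 at 132 and 109 FPKM against 18.6 and 16.1 FPKM, neither of them called in that organ (limma, adjusted p = 0.0570 for both). All 3 were lower in the first leaf than in the coleoptile over both lights, where 20.8% of all loci were called, by log2 differences of -2.97 (LOC_Os01g14410, adjusted p = 0.000209), -2.55 (LOC_Os07g08150, adjusted p = 0.000128) and -1.97 (LOC_Os07g08160, adjusted p = 0.00181; limma). Their median shade difference was -2.98 in first leaves and -0.53 in coleoptiles, with 0 of the 3 called in either organ. Among the 6 photoreceptors the lowest shade difference in first leaves was -0.71, for CRY2. The early light-induced loci LOC_Os02g16560, LOC_Os03g30400 and LOC_Os05g08110 were under the filter.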
